A study of Homo sapiens with 6 samples.

Results

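The cytosolic ribosomal protein genes encode the protein parts of the ribosome that translates nuclear mRNA. They were taken as the genes whose symbol is RPL or RPS followed by a number and at most the letter A, L or X, together with RPLP0, RPLP1, RPLP2 and RPSA. The rule found 79 of the 17042 genes in the table, 47 of the large subunit and 32 of the small subunit, counting by the letters L and S. All 79 passed the filter on low counts and were tested.

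Polyadenylated RNA was sequenced from THP1 (THP-1), a human monocytic leukaemia line, in 3 control and 3 knockdown libraries. The cells of all 6 libraries received PMA (phorbol ester, 100 ng/mL) for 24 hours, which turns the line into macrophage-like cells. They then received IL-4 (interleukin-4, 20 ng/mL) for 24 hours. The controls are labelled wild type, and the labels do not say whether they received a control siRNA or the lipid reagent. The knockdown cells were transfected, before IL-4, with small interfering RNA against the long noncoding RNA RP11-184M15.1, and the level of that RNA is not analysed here. The labels do not call the replicates separate cultures, so the error behind each p-value is the variation among 6 libraries and could be technical alone. The libraries held 10450043 to 14181343 counts. All 15 macrophage markers checked were present, although MRC1, the mannose receptor, averaged only 1.76 CPM in the controls and 2.43 CPM in knockdown. CPM is a gene's count relative to the library's total, scaled by TMM factors as edgeR does. Of 16 markers of other cell types, 7 were not among the genes in the table. The adhesion receptor PECAM1, which myeloid cells also carry, made up most of the signal of the rest (summed level 693 to 746 CPM in the controls and 674 to 715 CPM in knockdown).

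A ribosome needs its proteins in matched amounts, so the genes that encode them are usually expressed at high and coordinated levels. Their mRNAs typically begin with a run of C and T bases at the transcription start (the 5′ terminal oligopyrimidine tract). Through this tract the kinase mTORC1 and the RNA-binding protein LARP1 govern how much of the mRNA is translated, so mRNA level and protein output can part. In monocytes and macrophages some ribosomal proteins also act outside the ribosome: RPL13A, for example, belongs to a complex that silences inflammatory mRNAs after interferon.

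The start sites below are shown because this tract is the feature most of the genes share. Each run is 30 bases from RefSeq on GRCh38.p14, 10 before and 20 from the annotated first transcribed base onward, and capitals mark a run of at least 7 C or T bases on the transcript's strand that begins within 10 bases of that first base.

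RPSA (chr3:39406710-39406739, plus strand): tgccgcctgTCTTTTCCgtgctacctgcag

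RPLP0 (chr12:120201092-120201121, minus strand): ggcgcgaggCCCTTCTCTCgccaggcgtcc

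RPS16 (chr19:39435930-39435959, minus strand): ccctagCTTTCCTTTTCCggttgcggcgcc

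RPLP2 (chr11:809957-809986, plus strand): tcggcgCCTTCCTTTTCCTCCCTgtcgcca

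RPS27 (chr1:153990752-153990781, plus strand): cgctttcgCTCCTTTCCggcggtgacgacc

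RPL37A (chr2:216498834-216498863, plus strand): gcgTCTCTTCCTTTCTgggctcggacctag

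RPS4X (chrX:72277229-72277258, minus strand): ctccagccccaatttctacgcgcaccggaa

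RPS27L (chr15:63157458-63157487, minus strand): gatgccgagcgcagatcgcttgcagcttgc

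The first 4 of these genes had knockdown libraries entirely below the controls, RPS27 and RPL37A did not differ between the groups beyond their spread, and RPS4X, whose groups did not overlap either, and RPS27L have no such run in the window. Of the 63 ribosomal protein genes in the RefSeq table, 55 (87.3%) held a run by this definition, against 19.1% of all 27305 genes there. The share was 91.7% of 12 genes for translation factors and partners of the same mRNA class and 18.8% of 69 mitochondrial ribosomal protein genes. The median log2 fold change, knockdown against control, was -0.09 for the 55 genes with a run and -0.12 for the 8 without. A match says only that these letters are in the window. The lack of one says only that no such run begins near the annotated starts used, and does not show that the mRNA lacks the tract.

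Together the 79 genes made up a slightly smaller share of the RNA in knockdown, but the controls disagreed among themselves by more than that. They took 3.96%, 3.82% and 3.53% of all counts in control replicates 1, 2 and 3 and 3.65%, 3.58% and 3.55% in knockdown replicates 1, 2 and 3. Control 1 was the highest library and control 3 the lowest, below all 3 knockdown libraries, so the groups overlapped. The means were 3.77% ± 0.22 (SD, n = 3) and 3.59% ± 0.05 (SD, n = 3), a difference of -0.18 percentage points, smaller than the SD of the controls. In bulk samples fewer cells of a type and less RNA per cell cannot be told apart. The large subunit genes took 2.24% ± 0.11 in the controls and 2.14% ± 0.04 in knockdown, and the small subunit genes 1.53% ± 0.10 and 1.46% ± 0.01 (SD, n = 3 each). The ratio of large to small subunit counts was 1.47 ± 0.03 in the controls and 1.46 ± 0.01 in knockdown, a difference within the spread.

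**Figure D1:**
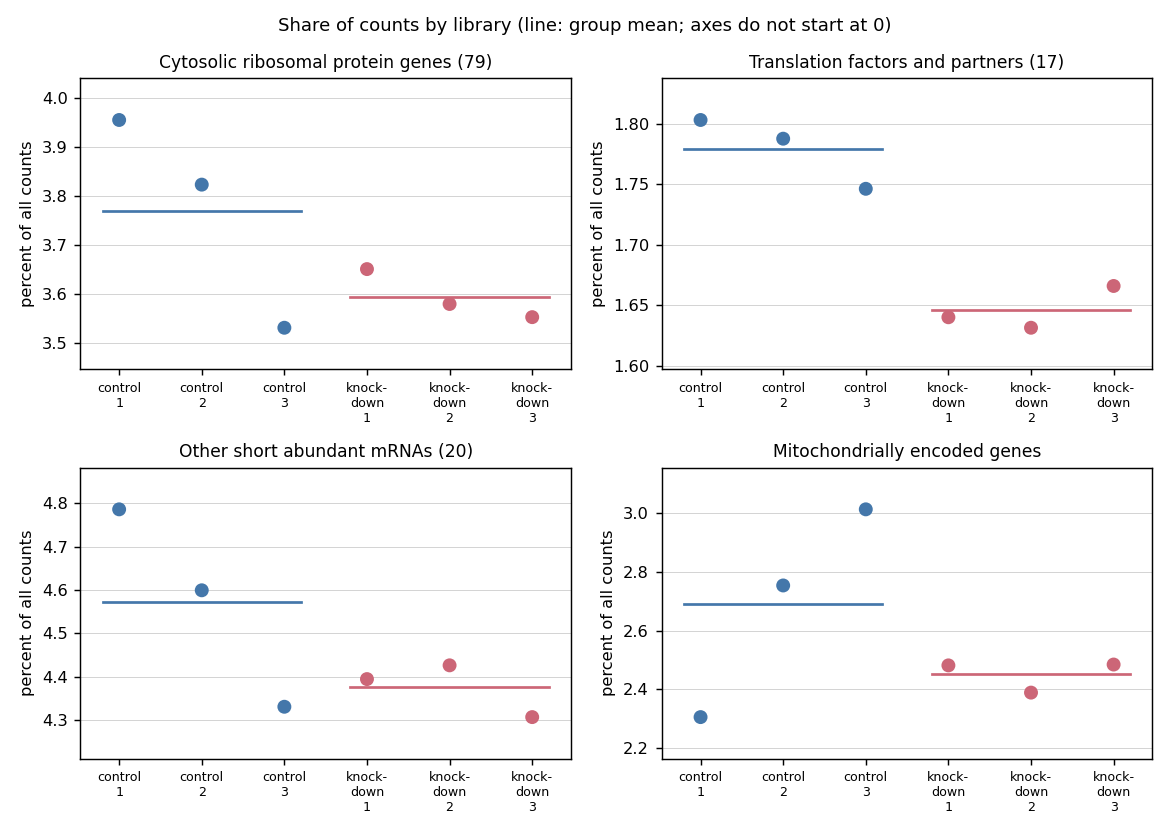
Percent of all counts (y axis, not starting at 0) in each of the 6 libraries (x axis; control in blue, knockdown in red, line at the group mean) for the 79 ribosomal protein genes, 17 translation factors and partners, 20 other short abundant mRNAs and the mitochondrially encoded genes. The ribosomal protein share runs from 3.96% in control 1 to 3.53% in control 3 and the mitochondrial share the other way, from 2.31% to 3.01%.

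The genes varied between libraries largely as a block. Control 1 was the highest of the 6 libraries for 60 of the 79 genes (75.9%), against 23.5% of all genes tested. Control 3 lay below control 1 for 73 genes (92.4%, against 50.3% of all genes) and was the lowest of the 6 for 30. Knockdown replicate 3 was the lowest for 29 genes. The median difference between control 3 and control 1 was -0.21 on the log2 scale over the ribosomal protein genes and -0.00 over all genes tested, so it exceeded the median knockdown change given below. Against control 1 alone the mean of the knockdown libraries was lower for 74 genes (median -0.19), and against control 2 for 73 (median -0.12). Against control 3 it was lower for 34 of 79, with a median of 0.02. The knockdown libraries lay close together: the median SD of log2 CPM was 0.04 in knockdown and 0.11 in the controls, and the controls had the larger SD for 68 of 79 genes (86.1%, against 61.8% of all genes).

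**Figure D2:**
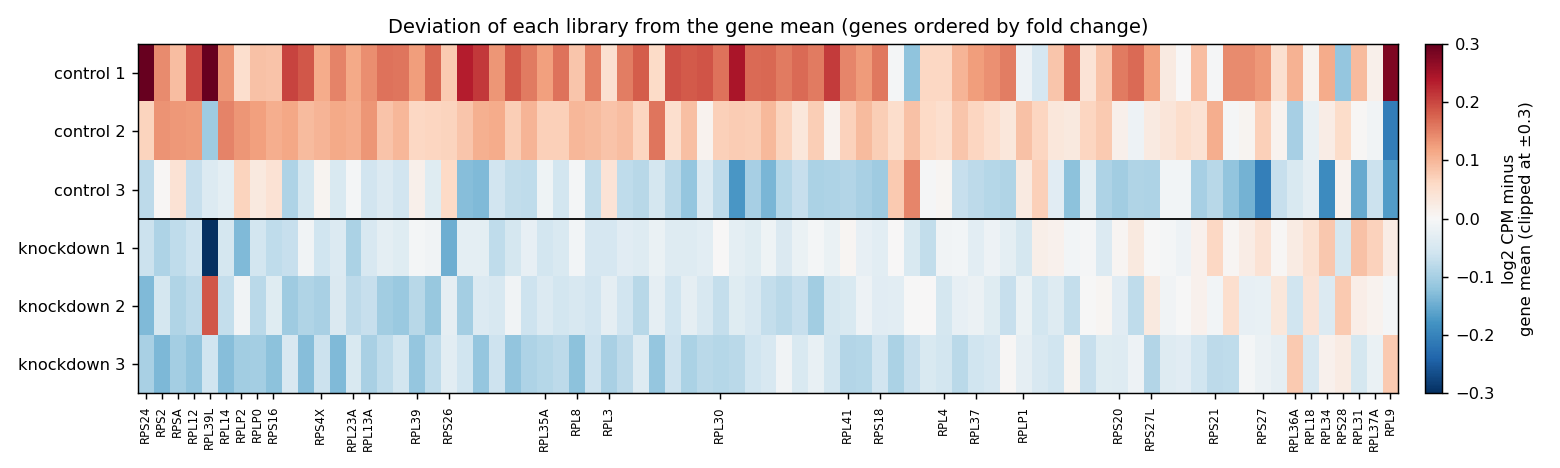
Deviation of each library (rows) from the gene's mean over the 6 libraries, in log2 CPM, for the 79 genes (columns, ordered from the lowest to the highest fold change, some labelled; colours clipped at ±0.3). Control 1 is above the mean for most genes, while control 3 is below it for most genes, as the knockdown libraries are; control 1 is the highest library for 60 genes and control 3 the lowest for 30.

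Other transcripts varied with this difference between the controls. Mitochondrially encoded genes went the opposite way, with 2.31%, 2.75% and 3.01% of counts in control replicates 1 to 3 and 2.39% to 2.48% in knockdown. The 20 other short abundant mRNAs, among them ferritin, thymosin and profilin transcripts, took 4.79%, 4.60% and 4.33% in the controls and 4.31% to 4.43% in knockdown. Mitochondrial ribosomal protein genes had a median difference of -0.17 between control 3 and control 1 (log2). The part of these features in the ribosomal protein values was not tested.

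Gene by gene, the comparison asks whether targeting RP11-184M15.1 changes the mRNA of each ribosomal protein in IL-4-treated macrophages. Of the 79 genes, 2 fell and none rose at an adjusted p under 0.05 in edgeR's quasi-likelihood test (Benjamini-Hochberg over 13405 genes). That is 2.53% of them, against a background of 1.61% of all genes called lower and 1.22% called higher. RPL39L and RPS27L, the 2 rarest, were left out in setting an abundance range for comparison. Among the 2255 other genes in that range of mean log2 CPM, 4.12% were called lower and 56.2% had a log2 fold change below 0. At an unadjusted p under 0.05, 28 were lower (background 8.21%) and 0 higher (background 6.89%). DESeq2 called 6 lower (background 2.32%) and 0 higher (background 1.47%): RPSA, RPS2, RPLP0, RPLP2, RPS16 and RPS4X. Calls were more frequent among abundant genes in general. Of the 2255 other genes in the abundance range, 349 were lower and 210 higher at an unadjusted p under 0.05. DESeq2 called 195 of those 2255, counting both directions. The log2 fold change was below 0 for 71 of the 79 (background 50.6%). It ran from -0.21 to 0.05 with a median of -0.09, where all genes tested had a median of -0.00 and the median standard error of a ribosomal protein gene was 0.05. The median was -0.11 for the large subunit (41 of 47 below 0) and -0.09 for the small subunit (30 of 32 below 0). These genes share the libraries that stand apart, so their common sign is not 79 separate observations.

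**Figure D3:**
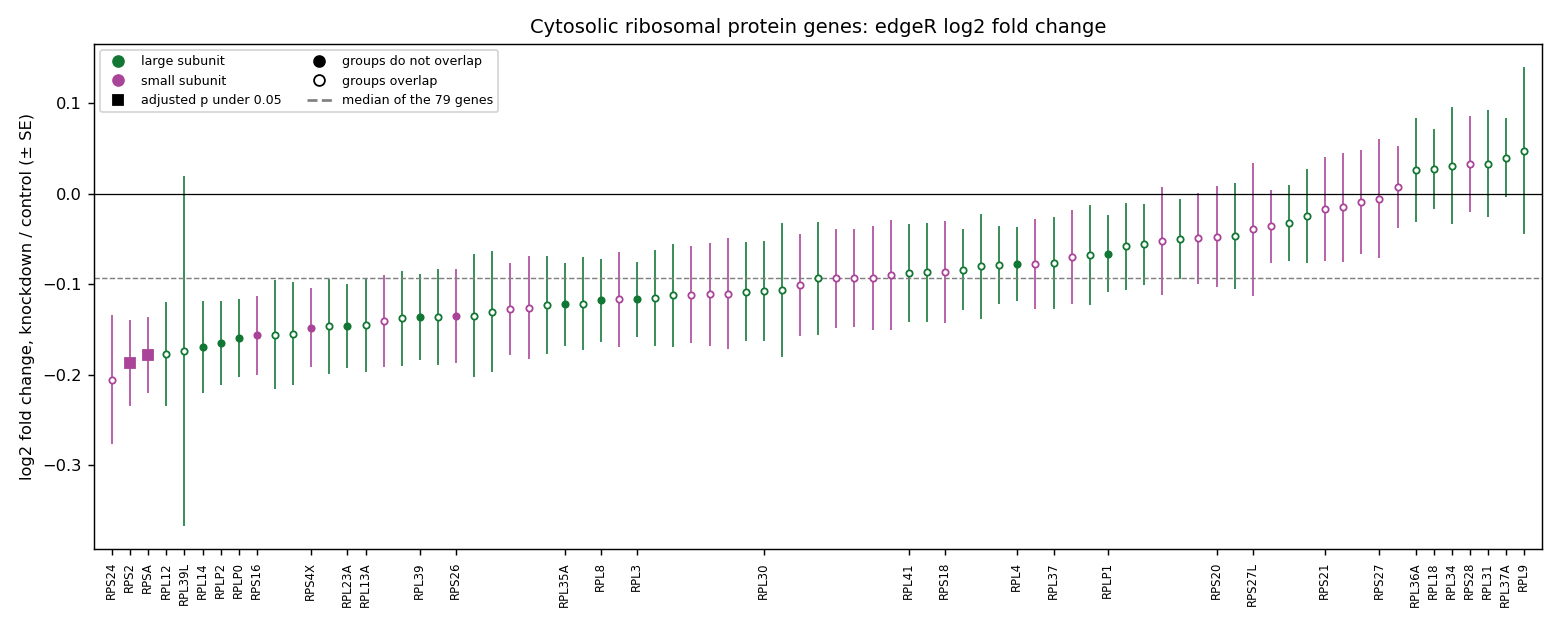
Log2 fold change of knockdown over control (y axis, edgeR, bars ± SE) for the 79 genes (x axis, some labelled), large subunit in green and small subunit in purple; squares passed an adjusted p of 0.05, filled symbols have groups that do not overlap, and the dashed line is the median of -0.09. RPS2 and RPSA are the 2 squares, and 8 genes lie above 0.

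The 3 knockdown libraries all lay below the 3 controls for 15 genes (19.0%, background 10.4%) and all above for 0 (background 9.61%). Of the 2255 other genes in the abundance range given above, 19.0% lay entirely below and 12.2% entirely above. The count of 2 called genes also moved with the libraries. It was 28 lower and 0 higher without control replicate 3 (background 2.24% lower and 1.33% higher), and 6 lower and 1 higher without control replicate 1 (background 2.40% lower and 1.57% higher). With control replicate 2 left out it was 0 (background 0.754% lower and 0.454% higher). It was also 0 with knockdown replicate 1 left out (background 0.835% and 0.586%), knockdown replicate 2 (0.617% and 0.404%) or knockdown replicate 3 (0.703% and 0.44%). The calls over the whole table moved as well, from 379 with all libraries to 488 without control replicate 3, 542 without control replicate 1 and 139 to 194 in the settings with 0 ribosomal protein genes.

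The genes that fell were RPSA and RPS2, both of the small subunit. RPSA, which sits near the exit of the mRNA channel and is also known as a laminin receptor, had 664, 682 and 641 CPM in the control libraries and 591, 585 and 580 CPM in the knockdown libraries. The groups did not overlap, and the knockdown libraries lay closer together. RPSA fell from 662 ± 20.1 to 585 ± 5.27 CPM (SD, n = 3 each), a log2 fold change of -0.18 ± 0.04 (SE) with an edgeR adjusted p of 0.0318. RPSA (ENSG00000168028.13) lies on GRCh38 chromosome 3 from 39406689 to 39412542 on the plus strand, with small nucleolar RNA genes in its introns.

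RPS2, a protein of the mRNA entry channel, had 1385, 1377 and 1257 CPM in the controls and 1177, 1210 and 1143 CPM in knockdown. Control 3 was the lowest control and still lay above every knockdown library. RPS2 fell from 1340 ± 71.7 to 1176 ± 33.5 CPM (SD, n = 3 each), a log2 fold change of -0.19 ± 0.05 (SE) with an edgeR adjusted p of 0.0454. RPS2 (ENSG00000140988.15) lies on chromosome 16 from 1962052 to 1964860 on the minus strand. Neither call held with every set of libraries: the adjusted p of RPSA was 0.190 when control replicate 2 was left out and 0.131, 0.146 and 0.170 when knockdown replicates 1, 2 and 3 were. That of RPS2 was 0.223, 0.171, 0.124 and 0.244 in the same order.

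The other 6 proteins taken for the mRNA channel and decoding site did not pass. RPS26, at the exit side, had 92.6, 91.8 and 91.3 CPM in the controls and 79.2, 86.0 and 85.8 CPM in knockdown. The controls of RPS26 were nearly equal and the groups did not overlap, with a log2 fold change of -0.14 ± 0.05 (SE; edgeR adjusted p = 0.207). RPS14 had a log2 fold change of -0.13, RPS23, a decoding-site protein, of -0.11, RPS3 of -0.04 and RPS28 of 0.03, all with overlapping groups.

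The stalk of the large subunit, which recruits and activates the elongation factors, is built from RPLP0 and the acidic proteins RPLP1 and RPLP2. All 3 stalk genes had knockdown libraries below the controls, and none passed the test. Such separation was seen for 10.4% of all genes tested and 19.0% of the other genes in the abundance range. The stalk group was formed after the values were seen. RPLP0, the base of the stalk, had 925, 948 and 888 CPM in the controls and 838, 823 and 811 CPM in knockdown. The gap between the groups was nearly as wide as the range of the controls (log2 fold change -0.16, SE 0.04, adjusted p = 0.0592 in edgeR). RPLP2 had 359, 380 and 363 CPM in the controls and 316, 344 and 322 CPM in knockdown. Control 1, the highest library for most of the other genes, was the lowest control here (log2 fold change -0.17, SE 0.05, adjusted p = 0.0740 in edgeR). RPLP1 had 550, 590 and 566 CPM in the controls and 536, 548 and 545 CPM in knockdown. The lowest control of RPLP1 exceeded the highest knockdown library only narrowly (log2 fold change -0.07, SE 0.04, adjusted p = 0.510 in edgeR). RPLP0 passed in DESeq2 (adjusted p = 0.00726) and limma-voom (adjusted p = 0.0396), and RPLP2 in DESeq2 (adjusted p = 0.0352).

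RPL5 and RPL11 carry the smallest ribosomal RNA into the large subunit and, when free, bind the p53 regulator MDM2. RPL11 had 554, 521 and 451 CPM in the controls and 459, 446 and 465 CPM in knockdown. Control 3 lay among the knockdown libraries (log2 fold change -0.16 ± 0.06, SE, with an edgeR adjusted p of 0.213). RPL5 had 628, 583 and 543 CPM in the controls and 553, 515 and 528 CPM in knockdown. Here, too, control 3 lay inside the range of the knockdown libraries (log2 fold change -0.14, SE 0.05, adjusted p = 0.213 in edgeR).

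Among the 8 proteins taken for the peptide exit tunnel, a group also formed after the values were seen, the median log2 fold change was -0.11. Of these, 0 passed in edgeR or DESeq2, and 3 were lower at an unadjusted p under 0.05. That held for 8.21% of all genes tested and for 28 of the 79 ribosomal protein genes. RPL4, which reaches into the tunnel wall, had 1306, 1296 and 1256 CPM in the controls and 1242, 1207 and 1205 CPM in knockdown. The groups did not overlap, but the difference was small (log2 fold change -0.08, SE 0.04, adjusted p = 0.400 in edgeR). RPL23A, a docking site for factors at the tunnel exit, had 251, 250 and 231 CPM against 217, 219 and 224 CPM, without overlap (log2 fold change -0.15; edgeR adjusted p = 0.115). RPL39, a short protein at the exit, had 280, 268 and 259 CPM against 256, 242 and 236 CPM. The highest knockdown library of RPL39 was close to the lowest control (log2 fold change -0.14; edgeR adjusted p = 0.153). RPL19, RPL26 and RPL35 had log2 fold changes of -0.12, -0.11 and -0.11, RPL17 of -0.05 and RPL31 of 0.03, all with overlapping groups.

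Among the other genes without overlap, RPS16 came nearest to the threshold. RPS16, a protein of the small subunit head, had 318, 323 and 308 CPM in the controls and 284, 292 and 275 CPM in knockdown (log2 fold change -0.16, SE 0.04, adjusted p = 0.0723 in edgeR). RPS4X, the X-linked form of its protein, had 432, 429 and 402 CPM against 384, 374 and 382 CPM (log2 fold change -0.15; edgeR adjusted p = 0.0898). In both, control 3 was the lowest control and lay above all knockdown libraries, and in DESeq2 both passed (adjusted p = 0.0400 and 0.0447). RPL14 had 372, 376 and 332 CPM against 327, 323 and 311 CPM (log2 fold change -0.17; edgeR adjusted p = 0.0932). For RPL14, control 3 was nearer to the knockdown libraries than to the other controls. RPL3, which lies close to the peptidyl transferase centre, had 766, 786 and 763 CPM against 716, 727 and 693 CPM (log2 fold change -0.12). RPL35A had a log2 fold change of -0.12 and RPL8 of -0.12, and both kept the groups apart by less than the spread of the controls.

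**Figure D4:**
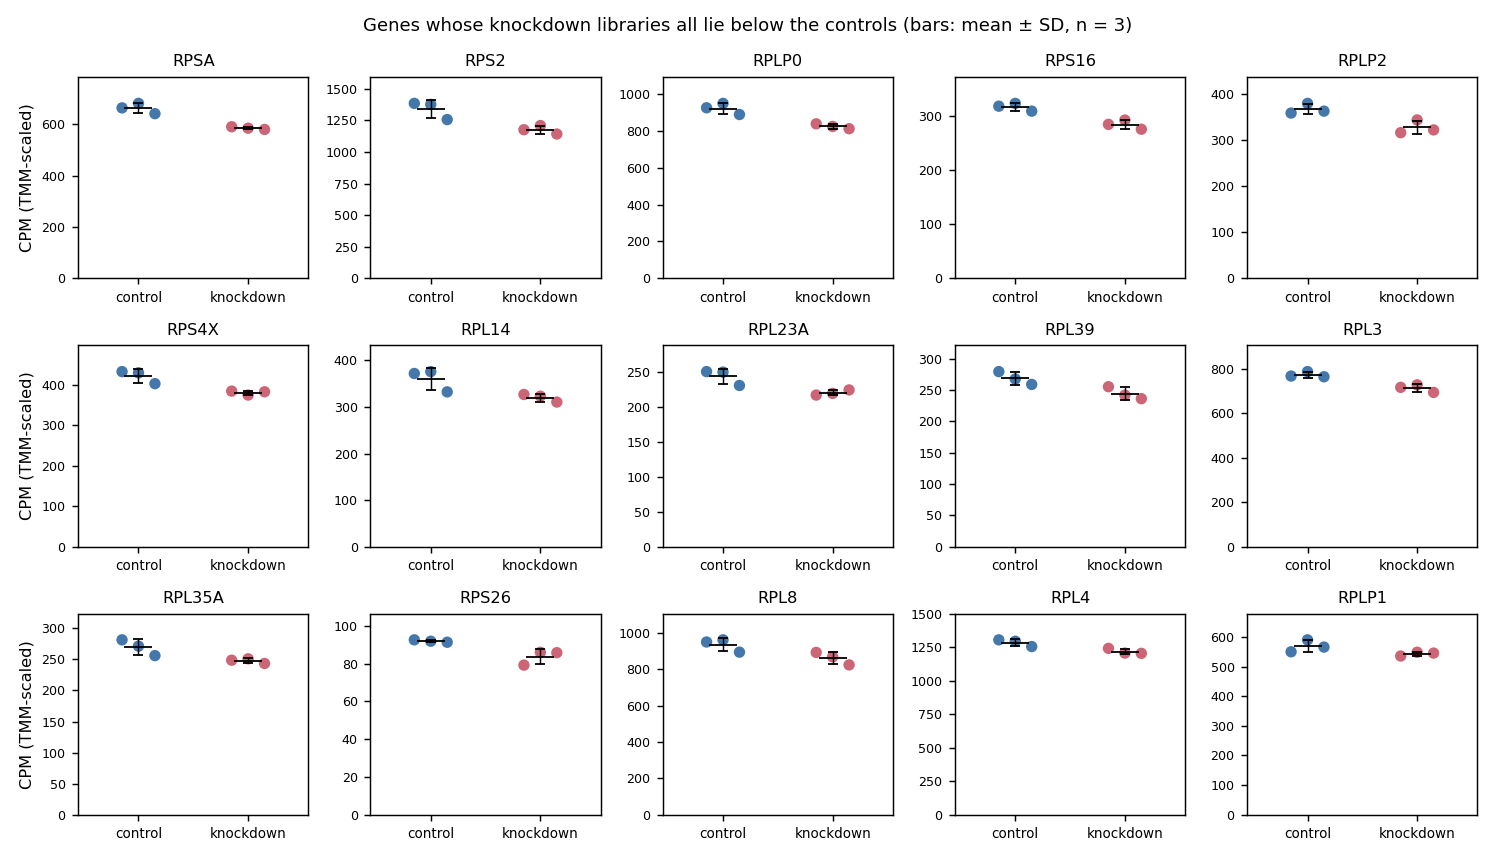
CPM (y axis, starting at 0) in each library for the 15 genes whose knockdown libraries all lie below the controls (points; control in blue, knockdown in red; bars are mean ± SD, n = 3), ordered by p. The gaps are small against the level: RPSA goes from 662 to 585 CPM and RPLP1 from 568 to 543 CPM.

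The lowest fold change with all libraries was not among those 15. RPS24 had 452, 382 and 346 CPM in the controls and 349, 333 and 341 CPM in knockdown. Control 1 stood far above the rest and control 3 lay inside the knockdown range (log2 fold change -0.21, SE 0.07, adjusted p = 0.153 in edgeR). Without control replicate 1 the log2 fold change of RPS24 was -0.09 (edgeR adjusted p = 0.307), and without control replicate 3 it was -0.29 and passed (edgeR adjusted p = 0.0104). RPL12 had 802, 762 and 665 CPM against 668, 661 and 642 CPM, with overlap through control 3 (log2 fold change -0.18; edgeR adjusted p = 0.123). RPL39L, the rare form of RPL39, had a log2 fold change of -0.17 ± 0.19 (SE) at 6.79, 4.68 and 4.90 CPM against 3.80, 5.75 and 4.84 CPM. Its error was larger than its change.

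At the other end, 8 genes had a fold change above 0 and 0 passed. RPL37A had 408, 400 and 386 CPM in the controls and 423, 407 and 398 CPM in knockdown, with the smallest p of these (log2 fold change 0.04, SE 0.04, adjusted p = 0.740 in edgeR). Its groups overlapped. RPL31, RPS28 and RPL34 had log2 fold changes of 0.03 each, and RPL36A, RPL18 and RPS15 of 0.03, 0.03 and 0.01. RPS27, a small-subunit protein, had 716, 689 and 569 CPM against 674, 645 and 647 CPM. Its controls spanned the whole knockdown range (log2 fold change -0.01, SE 0.07, adjusted p = 0.981 in edgeR).

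RPL9 had the highest fold change, 0.05 ± 0.09 (SE), with 156, 112 and 114 CPM in the controls and 131, 128 and 136 CPM in knockdown. Control 1 lay above the knockdown libraries and the other controls below them. Without control replicate 1, RPL9 had a log2 fold change of 0.22 and passed (edgeR adjusted p = 0.0118). Without control replicate 2 or 3 it lay below 0, at -0.04 and -0.02. RPL28 also behaved apart from the block, with 363, 419 and 437 CPM in the controls and 382, 394 and 376 CPM in knockdown. Control 1 was the lowest library of RPL28, and without it the gene had a log2 fold change of -0.15 and passed (edgeR adjusted p = 0.0328; all libraries, 0.573).

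Many pseudogenes of ribosomal protein genes are copies of mRNA put back into the genome. RPL9 and 3 more of these genes share much sequence with a pseudogene that held many counts, so their levels are uncertain. The table holds 31 annotated ribosomal protein pseudogenes, which together took 0.08% of counts in each group. RPL9P9 held 25013 counts over the 6 libraries against 9281 for RPL9, and 89.8% of its 31-base words occur in RPL9 transcripts of GENCODE 29. RPL23AP42 held 17421 counts against 16596 for RPL23A and shared 86.4% of its words. RPL21P16 held 11154 against 17282 for RPL21, and RPS28P7 held 3725 against 13308 for RPS28, each sharing 100% of its words. The copies held 72.9%, 51.2%, 39.2% and 21.9% of the joint counts of the pairs. Reads were not examined, so how they were divided within a pair is not known. Some other pseudogenes shared as much sequence but held few counts, such as RPL7P9 with 91.4% of its words in RPL7 and 12 counts. With each pseudogene added to its parent, the log2 fold change of RPL9 was -0.01 in place of 0.05, that of RPL23A -0.08 in place of -0.15, that of RPL21 -0.14 and that of RPS28 0.03. The edgeR adjusted p of RPL23A was then 0.412. RPL23AP42 had 253, 250 and 235 CPM in the controls and 256, 235 and 229 CPM in knockdown, with overlap. The place of RPL23A among the 15 genes without overlap is therefore uncertain. The number of ribosomal protein genes called stayed at 2 lower and 0 higher. Among these pseudogenes 0 of 13 tested passed in edgeR, in DESeq2 or at an unadjusted p under 0.05. RPS4XP16 and RPL32P3, the nearest, had log2 fold changes of -0.69 ± 0.42 and 0.27 ± 0.17 (SE) at under 5 CPM. The sources used here do not state whether reads were assigned by strand, and 37 of the 79 genes overlap a gene on the opposite strand, among them RPLP2 (PIDD1), RPS4X (PIN4), RPL4 (ZWILCH), RPL23A (TLCD1) and RPL35A (IQCG).

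Levels were compared between genes as CPM per kilobase of coding sequence, since annotated transcript ends of these genes ran to 7686 bases and would distort a full length. The median over the 79 genes was 894 CPM per coding kilobase. RPL41, with 75 coding bases, stood highest at 11969, a value that its short coding part inflates. RPS27 followed at 2605 CPM per coding kilobase, with 2256 to 2842 in the controls and 2559 to 2676 in knockdown. RPS18 had 2131, RPS20 1970, RPL30 1791, RPL13A 1706, RPL39 1678 and RPL37 1655 CPM per coding kilobase. RPL39 and RPL37 also have short coding parts, of 153 and 291 bases. By this measure RPL39 ranked 7, but it ranked 26 per kilobase of its 401-base transcript. Library by library, each of RPL41, RPS27, RPS18, RPS20 and RPL30 exceeded the next in that order in 6 of 6 libraries, as RPL30 exceeded RPL13A, although the ranges over libraries overlapped from RPS27 down. RPL13A exceeded RPL39, and RPL39 exceeded RPL37, in 4 of 6 libraries, so the order of those 3 is not resolved. The medians of the large and small subunit were 903 and 890 CPM per coding kilobase.

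The lowest were RPL39L at 33.5 and RPS27L at 135 CPM per coding kilobase, both variant copies. RPL9 stood at 225, but at 831 with its pseudogene counts. RPS26 stood at 254, below every library of the next higher gene, with 265 to 268 in the controls and 229 to 249 in knockdown. RPL18, RPL34, RPS21 and RPL36A lay between 422 and 462 CPM per coding kilobase, and each exceeded its lower neighbour in that group in 4 of 6 libraries. All the others had at least 422 CPM per coding kilobase.

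**Figure D5:**
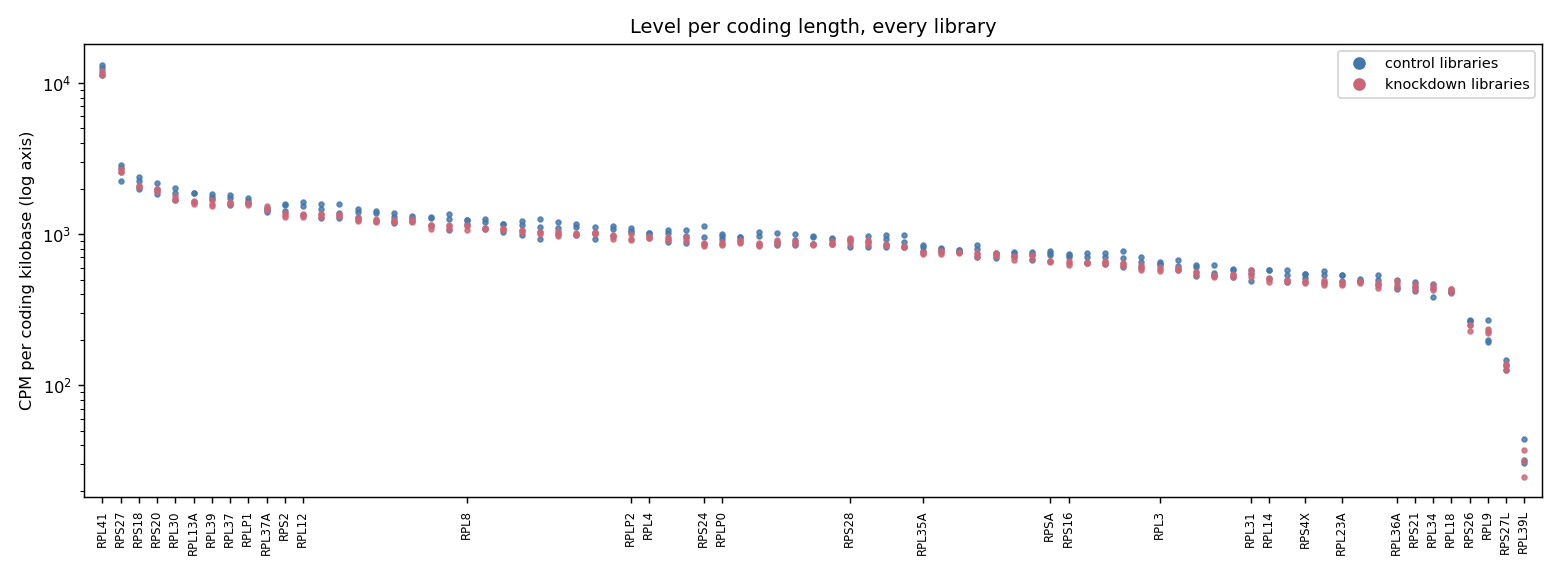
CPM per coding kilobase (y axis, log scale) in every library for the 79 genes (x axis, ordered by level, some labelled), control libraries in blue and knockdown libraries in red. RPL41 stands alone at 11969, most genes lie between 422 and 2605, and RPS26, RPL9, RPS27L and RPL39L are the 4 lowest.

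Most variant copies of ribosomal protein genes were expressed well below their parents. RPS27L, a target of p53 in other cells, had 36.9, 34.5 and 31.8 CPM in the controls and 33.9, 34.6 and 31.9 CPM in knockdown, with overlap (log2 fold change -0.04; edgeR adjusted p = 0.859). Its counts were 4.93% to 5.60% of those of RPS27 over the 6 libraries. RPL39L had 1.49% to 2.43% of the counts of RPL39. RPL22L1 had 8.29%, 7.25% and 8.49% of the counts of RPL22 in the controls and 10.2%, 9.07% and 11.02% in knockdown. These ratios did not overlap, but neither gene passed: RPL22L1 had a log2 fold change of 0.22 ± 0.11 (SE; edgeR adjusted p = 0.337) and RPL22 of -0.11 (edgeR adjusted p = 0.374). RPL26L1 had a log2 fold change of -0.02 and RPL36AL, which had 55.6% to 69.2% of the counts of RPL36A, of -0.08. RPL7L1 had 271, 266 and 267 CPM against 245, 235 and 243 CPM, with closely grouped controls and no overlap (log2 fold change -0.15, SE 0.04, adjusted p = 0.0674 in edgeR), and it passed in DESeq2.

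Ribosomal proteins named outside the rule had like values. FAU, which makes a ubiquitin-like protein fused to a small-subunit protein, had 258, 258 and 213 CPM against 216, 224 and 213 CPM, with overlap through control 3 (log2 fold change -0.16; edgeR adjusted p = 0.237). RACK1, a signalling scaffold on the small subunit, had a log2 fold change of -0.05. RPS27A, the ubiquitin fusion within the rule, had one of -0.01. None of them passed.

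Translation factors and partners of the same mRNA class, the latter including NPM1 and TPT1, took a smaller share in every knockdown library. The 17 genes held 1.80%, 1.79% and 1.75% of counts in the controls and 1.64%, 1.63% and 1.67% in knockdown, without overlap. EEF1A1, the factor that brings aminoacyl-tRNA to the ribosome, was the member that fell, from 9009, 8837 and 8396 CPM in the controls to 7608, 7652 and 7800 CPM in knockdown (log2 fold change -0.19, SE 0.04, adjusted p = 0.0248 in edgeR). All its controls lay above the knockdown libraries. Of the 17, 1 fell and 0 rose (background 1.61% lower and 1.22% higher). A fold change below 0 was seen for 16 (background 50.6%), with a median of -0.09. In 9 genes the knockdown libraries all lay below the controls (52.9%, background 10.4%). Among the 2255 other genes in the abundance range of the ribosomal proteins, 4.12% were called lower and 19.0% lay entirely below. EEF1A1 averaged 8217 CPM and PABPC1, the next highest, 2319 CPM, so EEF1A1 weighs most in the share. EEF1A1 had edgeR adjusted p from 0.106 to 0.148 when control replicate 2 or any 1 knockdown replicate was left out. Whether these 17 genes differ from the ribosomal proteins was not tested.

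Genes that make and regulate ribosomes showed few calls. Of 50 genes of ribosome biogenesis 0 passed in edgeR or DESeq2. At an unadjusted p under 0.05 there were 7 lower (background 8.21%) and 1 higher (background 6.89%). The log2 fold change was below 0 for 41 (background 50.6%), with a median of -0.04. NOP58, a core protein of box C/D small nucleolar particles, had -0.18 ± 0.06 and the assembly factor NIP7 -0.23 ± 0.08 (log2 fold change ± SE), with edgeR adjusted p of 0.113 and 0.147. Of 15 genes of RNA polymerase I 0 passed with either tool (3 lower at an unadjusted p under 0.05, background 8.21%). Their median log2 fold change was 0.02, and POLR1B and TWISTNB (POLR1F), the nearest, had -0.17 and -0.20. Among 16 carriers and chaperones of ribosomal proteins, 2 import receptors fell and 0 rose (background 1.61% lower and 1.22% higher). TNPO1 had 570, 579 and 602 CPM in the controls and 489, 473 and 492 CPM in knockdown (log2 fold change -0.27, SE 0.04, adjusted p = 0.00219 in edgeR). The TNPO1 groups lay far apart, and the gene passed with any 1 library left out. IPO9 had 103, 103 and 101 CPM against 90.3, 85.1 and 82.8 CPM (log2 fold change -0.25; edgeR adjusted p = 0.0138). Its adjusted p was 0.0869 with control replicate 2 left out and 0.0997 and 0.106 with knockdown replicates 2 and 3 left out.

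None of 21 genes of the mTORC1 and LARP1 pathway passed in edgeR or DESeq2 (1 lower at an unadjusted p under 0.05, background 8.21%). Their median log2 fold change was -0.03. RICTOR, a subunit of the second mTOR complex, had -0.16 and TBC1D7, a subunit of the TSC complex, -0.47 ± 0.24 (SE) at 1.82 to 3.18 CPM. None of 10 genes of the MYC network passed with either tool or at an unadjusted p under 0.05 (median 0.09), with MXD4 at -0.16 and MAX at 0.10. Of 12 genes of the p53 checkpoint that free ribosomal proteins act on, 1 rose and 0 fell in edgeR (background 1.22% and 1.61%). DESeq2 called 0 of the 12. At an unadjusted p under 0.05, 4 were higher (background 6.89%) and 0 lower (background 8.21%). A log2 fold change above 0 was seen for 10 (median 0.11), against 6624 of all 13405 genes tested. In 4 all knockdown libraries lay above the controls (33.3%, background 9.61%). The gene that rose was SESN2, an inhibitor of mTORC1, with a log2 fold change of 0.29 ± 0.07 (SE; edgeR adjusted p = 0.0498), which did not pass with any 1 library left out (adjusted p 0.0583 to 0.248). Of 11 noncoding hosts of small nucleolar RNAs 0 passed with either tool (2 lower at an unadjusted p under 0.05, background 8.21%). Their median log2 fold change was 0.10, and LRRC75A-AS1 and SNHG16 had -0.16 and -0.18.

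Mitochondrial ribosomal protein genes, which serve the separate ribosome of mitochondria, had 0 of 80 past the threshold in edgeR and DESeq2. At an unadjusted p under 0.05, 7 were lower (background 8.21%) and 1 higher (background 6.89%). The log2 fold change lay below 0 for 58 (background 50.6%), with a median of -0.04. MRPL50 had -0.32 ± 0.09 and MRPL21 -0.27 ± 0.08 (log2 fold change ± SE), with edgeR adjusted p of 0.0880 and 0.0955. Mitochondrially encoded mRNA had 1 of 13 lower (background 1.61%), MT-ND3 at -0.19 (edgeR adjusted p = 0.0239), and a median of -0.16. The short abundant mRNAs had 1 of 20 lower (background 1.61%), S100A4 at -0.24 (edgeR adjusted p = 0.0167), and a median of -0.06. Of the 15 macrophage markers 3 rose and 2 fell (background 1.22% higher and 1.61% lower). The log2 fold changes were 0.34 for CD14, 0.40 for CD163, 0.23 for ITGAX, -0.40 for LYZ and -0.65 for CCL22. With control replicate 2 or knockdown replicate 2 left out, MT-ND3, S100A4, CD163 and ITGAX did not pass, with adjusted p from 0.0594 to 0.137. Knockdown replicate 1 (MT-ND3 and CD163) and knockdown replicate 3 (MT-ND3, S100A4 and ITGAX) also decided calls, with adjusted p from 0.0535 to 0.123 without them. The summed marker level was 7157 to 7450 CPM in the controls and 6698 to 6894 CPM in knockdown. Of 7 markers of other cells tested 0 passed in edgeR, in DESeq2 or at an unadjusted p under 0.05, with GNLY at 0.36 ± 0.22 (SE) and PECAM1 at -0.09.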

How the data were processed

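Polyadenylated RNA of 6 THP-1 libraries was analysed, grouped by the sample titles. The authors deposited a single table of expected counts, whole numbers with a gene symbol in each row. The submitters' processing notes name Salmon 0.11.2, DESeq2 and hg38 without saying what each did. The rounding, the annotation and the use of strand are not given in the sources used here. Salmon's counts are estimates that divide reads between similar genes.

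Counts were tested as deposited with edgeR 4.0.16 (two-sided quasi-likelihood test of group with no covariate, TMM factors, filterByExpr, Benjamini-Hochberg threshold 0.05) over 13405 genes. The SE is the size of the log2 fold change divided by the square root of F. Log2 CPM by library used a prior count of 2. Alternatives used limma 3.58.1 and DESeq2 1.42.0 in R 4.3.3. Summaries and plots used pandas 2.3.3, numpy 2.4.6 and matplotlib 3.10.9 in Python 3.11.15. The fit was run on simulated counts with planted changes larger than any of the ribosomal protein genes. No shift shared by the genes of a library was simulated, so that run does not bear on these calls. Positions, coding lengths (principal transcripts) and overlaps came from GENCODE 29 on GRCh38, start sites from RefSeq. In each library 3 counts came to 0.21 to 0.29 CPM.

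The genes and lists were chosen with earlier results of these data known. Of 14 lists with 227 entries, those past the threshold (at most 5 a list), or else the 2 with the smallest p, are named. Ribosomal protein genes are named if they passed, if the groups did not overlap, or if they were extreme in fold change or level. RPL5, RPL11, RPL28, RPS15, RPS27A and the groups by role were added after the values were seen. Some genes that these rules cover are not reported here. RPS19BP1 matches the pattern for pseudogenes but is protein-coding and was left out. Replicates of a group were not duplicates (chi-square per degree of freedom 1.90 to 6.79). The alternatives were DESeq2, limma-voom, other scalings, filters, a replicate block, leaving out each library and, added after seeing the data, merging pseudogenes.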

Additional observations from a re-analysis of the deposited data

How the results depend on the processing

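The 2 ribosomal protein genes called lower became 6 in DESeq2, 1 with upper-quartile factors, 1 with no filter and 7 with the replicate number as a block. They stayed at 2 with RLE factors, with scaling that left out the ribosomal protein genes, when genes had to reach 1 CPM in 3 libraries and with pseudogenes merged, and were 3 in limma-voom, a change of 1.5 times. Leaving out 1 library gave 0 to 28 lower and 0 to 1 higher. The genes that passed under the block were RPSA, RPS2, RPLP0, RPLP2, RPS16, RPL12 and RPL14. RPS2 had an adjusted p of 0.0548 with upper-quartile factors and 0.0514 with no filter. The median log2 fold change of the 79 genes stayed negative in every setting run, from -0.15 to -0.05 with 1 library left out, and the difference in their share of counts, -0.18 percentage points, was -0.08 without control replicate 1, -0.29 without control replicate 3 and -0.15 to -0.20 with each of the other libraries left out. It was -0.19 without mitochondrially encoded genes in the total and -0.18 with pseudogenes added. The cause of these shifts was not tested. The replicate numbers are not taken as pairs in the main test. Deviations of same-numbered libraries correlated at 0.05, 0.10 and 0.08, none over 0.1. Those of differently numbered libraries correlated at -0.08 to 0.0009, so each library correlated best with its own number. Whether the numbers mark pairs is not settled by these values. Under the replicate block the calls over all genes rose from 379 to 488. Depth bears most on RPL39L, with 3.80 to 6.79 CPM and an SE of 0.19, where the median SE of the log2 fold change was 0.05 over these genes.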
